A study of Mus musculus with 6 samples.

Results

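The 5 mouse opsin genes that are not used by rods or cones as their visual pigment are Opn3, Opn4, Opn5, Rrh and Rgr. They are 5 of the 21900 protein-coding genes in the RefSeq gene table, and they were followed through 6 lists of chromatin immunoprecipitation sequencing (ChIP-seq) peaks from mouse retina. A peak was taken as a member when its summit lay inside one of the genes or within 10 kb of it. That gave 36 peaks, 15 in the list of Bmal1 CKO 2 and 21 in that of Control 1, out of 138254 and 179475 peaks in those lists. The lists of Bmal1 CKO 1, Bmal1 CKO 3, Control 2 and Control 3 held 0 such peaks, out of 1444, 519, 410 and 372. Lists were matched to libraries by the sample records alone. The numbers in the deposited lists' names follow another order than the titles, and the peaks cannot show which genotype a list came from.

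The knockout retinas carried a conditional knockout of Bmal1 (Bmal1 CKO, n = 3), and those set against them were wild type (Control, n = 3). Bmal1 encodes BMAL1, a transcription factor of the circadian clock that pairs with CLOCK on E-box sequences. All 6 libraries came from C57BL/6 retina, precipitated with a rabbit antibody to BMAL1, from mice that had no external treatment and were weaned at postnatal day 20. The Cre driver, the cells that lost the gene, the age at collection and the time of day are not given in the labels. Peaks do not measure gene expression. The Bmal1 CKO lists also hold peaks, from retinas with a knockout of the gene for the antibody's target. A listed peak therefore need not be a site bound by BMAL1. At gene ends, peaks were listed for 1 of 4 rod markers in Bmal1 CKO 2 and 2 of 4 in Control 1, and for 1 and 3 of 5 genes not used in retina, so the lists cannot serve as a check of tissue. The authors' fold enrichment compares a summit with the local background of its own library. The genome-wide background recovered from the deposited values was 2.78, 5.83 and 0.560 fragments per base in Bmal1 CKO 1, 2 and 3, and 3.46, 0.609 and 0.852 in Control 1, 2 and 3.

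Opsins are receptors of the membrane that hold a retinal chromophore. Opn4 encodes melanopsin, the pigment of the intrinsically photosensitive ganglion cells that report light to the central clock. Opn5 encodes neuropsin, a short-wavelength pigment that lets the mouse retina set its own clock by light. Opn3 encodes encephalopsin, which was first described in brain and is made in many tissues. Rgr and Rrh encode RGR opsin and peropsin, which bind all-trans retinal. RGR acts as a photoisomerase in the pigment epithelium and Müller glia, and peropsin lies in the pigment epithelium. Melanopsin cells are rare, and in whole-retina chromatin a signal from few cells cannot be told apart from a weak one in many.

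Peaks at the start of the gene were listed for Opn3 and Rrh, in both Bmal1 CKO 2 and Control 1. Opn4 and Rgr had none there in either list. The 300 bases around these 4 starts, from 250 before to 50 after, are shown because they set the starts with a peak beside those without. They are RefSeq sequences of GRCm38.p6, whose coordinates are those of mm10, and all 4 lie on the minus strand. Capitals mark matches, on either strand and with none overlapping another, to 6 motifs: the E-box CACGTG, its variant CACGTT, the GC box GGGCGG, the CCAAT box CCAAT, the core TAATCC bound by the photoreceptor factor CRX, and the TATA box TATAAA. The windows are chr1:175692583-175692882 (Opn3), chr3:129822456-129822755 (Rrh), chr14:34600093-34600392 (Opn4) and chr14:37048965-37049264 (Rgr).
Opn3: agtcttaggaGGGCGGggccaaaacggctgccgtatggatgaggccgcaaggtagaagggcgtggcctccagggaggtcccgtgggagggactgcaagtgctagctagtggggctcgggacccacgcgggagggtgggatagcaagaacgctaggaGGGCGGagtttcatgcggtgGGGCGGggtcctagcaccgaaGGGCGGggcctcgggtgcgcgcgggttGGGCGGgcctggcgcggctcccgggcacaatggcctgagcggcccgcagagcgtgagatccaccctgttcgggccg
Rrh: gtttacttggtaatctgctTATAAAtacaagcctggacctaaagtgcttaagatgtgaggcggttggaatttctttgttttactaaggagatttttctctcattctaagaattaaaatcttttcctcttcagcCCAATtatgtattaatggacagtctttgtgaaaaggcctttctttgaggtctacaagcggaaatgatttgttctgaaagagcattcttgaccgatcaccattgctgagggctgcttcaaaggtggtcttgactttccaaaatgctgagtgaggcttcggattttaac
Opn4: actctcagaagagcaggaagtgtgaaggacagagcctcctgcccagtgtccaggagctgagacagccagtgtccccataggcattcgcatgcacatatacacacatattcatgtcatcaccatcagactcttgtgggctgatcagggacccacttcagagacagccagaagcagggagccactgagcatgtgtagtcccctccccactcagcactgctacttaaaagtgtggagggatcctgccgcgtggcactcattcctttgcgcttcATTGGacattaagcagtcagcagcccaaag
Rgr: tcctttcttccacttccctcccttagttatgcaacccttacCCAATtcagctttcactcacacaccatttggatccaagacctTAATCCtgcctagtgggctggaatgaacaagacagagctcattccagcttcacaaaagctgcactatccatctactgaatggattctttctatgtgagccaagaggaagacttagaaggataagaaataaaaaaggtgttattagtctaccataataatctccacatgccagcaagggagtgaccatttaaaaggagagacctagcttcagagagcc

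The 2 starts with a peak differed in base composition. The Opn3 window was 70.0% G or C, held 28 CpG dinucleotides and had a CpG ratio (observed over that from the window's C and G content) of 0.825. The Rrh window was 38.7% G or C, with 4 CpG and a ratio of 0.361. The windows of Opn4 and Rgr, without a peak, were 53.7% and 43.0% G or C, with ratios of 0.186 and 0. None of the 4 held CACGTG or CACGTT, letters that 7.84% and 4.68% of 21263 protein-coding promoter windows held. Opn3 held 5 GC boxes, a motif found in 46.2% of windows. A CCAAT box was found once in each of Rrh, Opn4 and Rgr and in 38.2% of all windows. Counted from the start, the TATA letters in Rrh began at position −231 (12.6% of windows hold them), and the CRX core in Rgr began at position −167 (6.42%). These are letter matches and do not show that a factor binds.

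Across all 21263 windows, a peak of Bmal1 CKO 2 overlapped 46.2% and a peak of Control 1 overlapped 56.7%. Among windows with a CpG ratio of at least 0.6, as at Opn3, the shares were 74.1% in Bmal1 CKO 2 and 87.3% in Control 1. Among windows under 0.6, as at Rrh, Opn4 and Rgr, they were 20.7% and 28.8%.

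Counted at either annotated end within 1 kb, 2 of the 5 opsin genes had a peak in Bmal1 CKO 2, where 58.9% of all protein-coding genes did, and 2 of 5 in Control 1, where 69.5% did. Opn3 and Rrh were the 2 in both lists, where 54.7% of the 21900 genes had such a peak in both. By annotated starts alone it was again Opn3 and Rrh, 2 of the 4 opsin genes with one in either list, beside 59.7% of genes in Bmal1 CKO 2 and 69.2% in Control 1. Somewhere inside the gene, a summit was listed for Opn3, Opn5 and Rrh in Bmal1 CKO 2 (background 69%) and for Opn3, Rrh and Rgr in Control 1 (78.9%). Counts over 5 genes this close to the background say nothing particular about opsin genes. Within the gene and 10 kb around it, 4 of 5 had a peak in Bmal1 CKO 2 (background 87.8%) and 5 of 5 in Control 1 (92.6%). In the 4 short lists that background was 2.05% in Bmal1 CKO 1, 1.08% in Bmal1 CKO 3, 0.781% in Control 2 and 0.758% in Control 3, and 0 of 5 is near it. None of the 5 had a gene-end peak in these lists either, where the background was 0.342%, 0.105%, 0.0594% and 0.0594%.

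**Figure D1:**
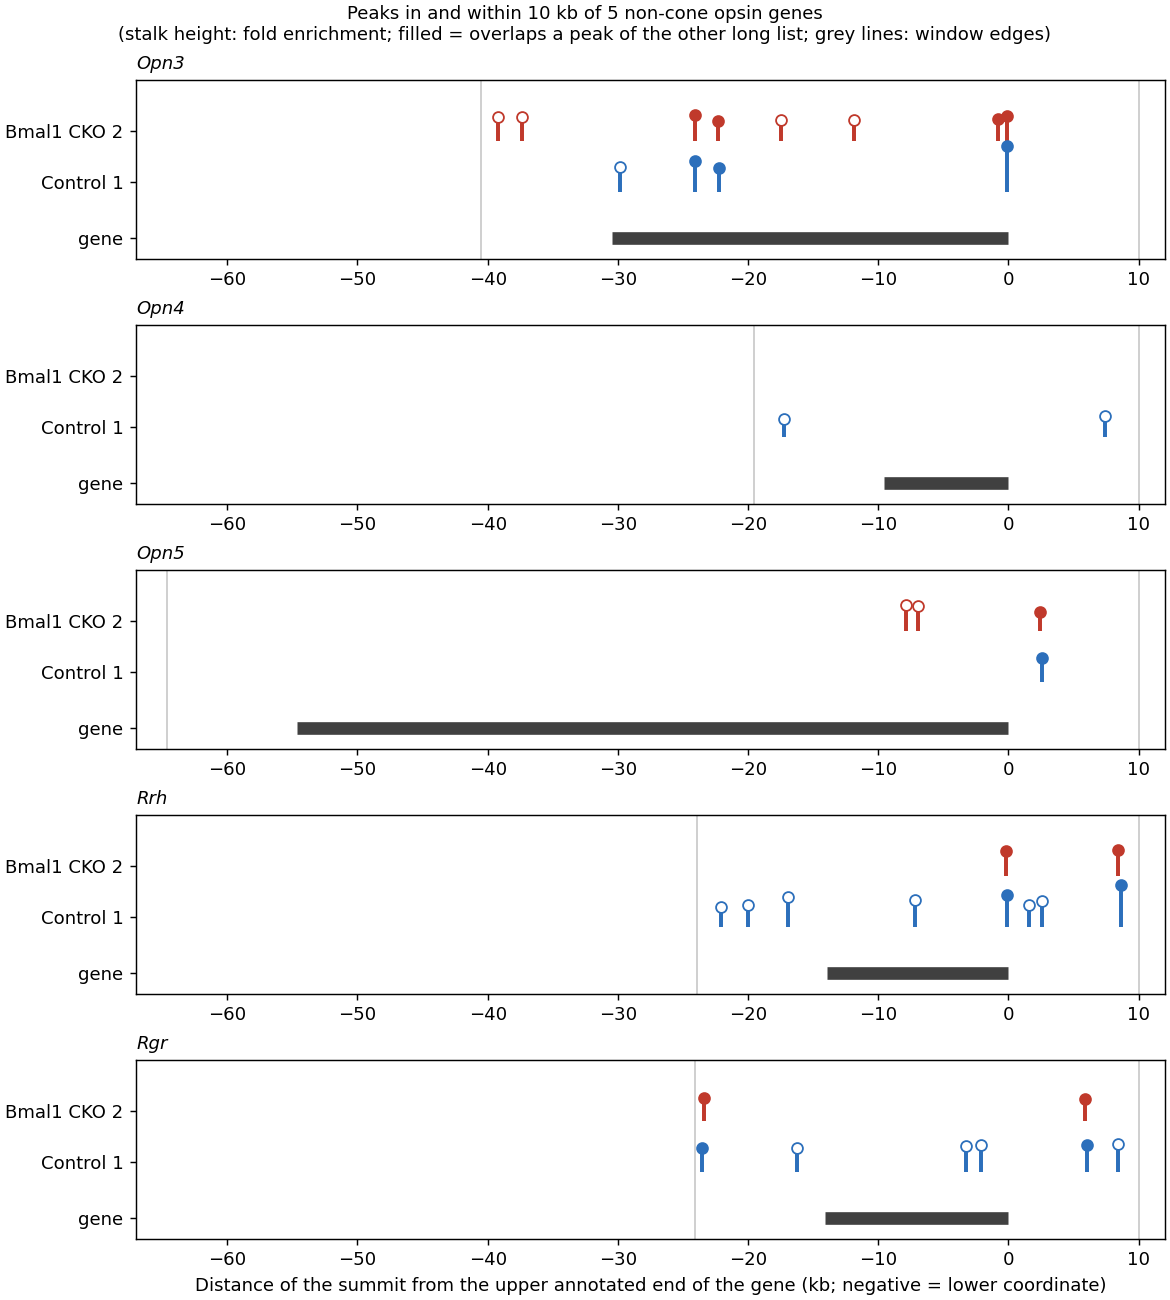
Position of each summit, in kb from the upper annotated end of the gene, with 1 panel per gene. The upper row is Bmal1 CKO 2, the lower row Control 1, and the stalk height is the fold enrichment. Filled heads overlap a peak of the other list, and grey lines mark the window edges. Opn4, Rrh and Rgr start at 0 kb and Opn3 just left of it, and all run to the left. Opn3 and Rrh carry filled peaks at 0 kb, and the body of Opn4 is empty in both rows.

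Opn3 (chromosome 1, 175662421 to 175692901) had 8 peaks in Bmal1 CKO 2 and 4 in Control 1. Its annotated start, 175692632, lies inside that span, so a summit upstream of the start can still lie inside the gene. In Bmal1 CKO 2 the peak at the start had its summit at 175692765, 133 bp upstream of the annotated start and 136 bp inside the upper end. Its fold was 3.33, from 34 stacked fragments over an expected 9.5. In Control 1 the summit lay at 175692815, 183 bp upstream and 86 bp inside the upper end, with a fold of 6.04 from 43 fragments over 6.28. Among all peaks of their own lists these folds stood at percentile 73.0 in Bmal1 CKO 2 and 97.5 in Control 1. The Control 1 fold was the highest of the 36 peaks. A fold is relative to its own library, each genotype is represented here by 1 listed library, and the difference has no replicate check.

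The Control 1 peak at this start was 1181 bp wide and overlapped 2 peaks of Bmal1 CKO 2, the one at the start and a second with its summit 536 bp downstream of it, with a fold of 2.95. A long noncoding RNA gene, Gm39707, starts on the other strand at 175693046. Its start lay 281 bp from the Bmal1 CKO 2 summit and 231 bp from the Control 1 summit, and the peak cannot be assigned to either gene. Further peaks lay inside Opn3. The protein-coding gene Chml (175682237 to 175688353) lies within the span of Opn3 and holds none of the summits. Its start was the nearest listed one to each of these further peaks. Wdr64 reaches into the upper flank of Opn3, where neither list had a summit. A pair shared by both lists had summits at 175668800 and 175670575 in Bmal1 CKO 2, with folds of 3.46 and 2.59, and at 175668864 and 175670692 in Control 1, with folds of 4.02 and 3.20. The gene table holds no exons, so peaks inside a gene were not divided into exonic and intronic.

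Unshared at Opn3 were 4 peaks of Bmal1 CKO 2 and 1 of Control 1. Those of Bmal1 CKO 2 had folds of 2.70 and 2.78 inside the gene, and of 3.16 and 3.15 in the flank, 8747 and 6884 bp beyond its lower end. Both flank summits fall within Kmo, which encodes kynurenine 3-monooxygenase. The Control 1 peak lay inside Opn3, 670 bp from the end opposite to the start, with a fold of 3.28. Of 1922 protein-coding genes with a window length within 10% of that of Opn3, 5.67% had at least 8 peaks in Bmal1 CKO 2, and 75.1% had at least 4 in Control 1. Among these genes 18.5% had more peaks in Bmal1 CKO 2 than in Control 1, as Opn3 did.

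Rrh (chromosome 3, 129808575 to 129822505) had 2 peaks in Bmal1 CKO 2 and 8 in Control 1. Both lists placed a peak just inside its start. In Bmal1 CKO 2 the summit at 129822336 lay 169 bp downstream of the start, with a fold of 3.24 from 27 fragments over 7.64. In Control 1 the summit at 129822414 lay 91 bp downstream, with a fold of 4.23 from 22 fragments over 4.44. The peaks overlapped the printed window by 64 and 63 bases, and neither summit fell inside it. At the start of Rrh the percentiles within the lists were 70.4 in Bmal1 CKO 2 and 77.5 in Control 1.

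The other shared peak of the Rrh window lay at a neighbour. Gar1 encodes a protein of the box H/ACA ribonucleoprotein, which modifies ribosomal RNA. Its start lay 500 bp from the Bmal1 CKO 2 summit, where the fold was 3.44, and 266 bp from the Control 1 summit, where it was 5.54. These were the highest folds of the Rrh window in both lists. The 6 peaks listed in Control 1 alone had folds of 2.68 to 4.02. The 1 of them inside Rrh had a fold of 3.57, and that of 4.02 lay 2983 bp beyond the lower end of Rrh and 1456 bp from the start of Lrit3, whose product is needed for signalling from photoreceptors to ON bipolar cells. The noncoding gene Gm36130 overlaps Rrh, so a peak there may belong to either. Of 2772 genes of like window length, 3.61% had at least 8 peaks in Control 1, and 71.2% had at least 2 in Bmal1 CKO 2. Only 2 of the 8 Control 1 summits lay inside Rrh. Those at 129800454 and 129802495 lay inside Lrit3, and those at 129825112 and 129831130 inside Gar1. Genes were matched by window length and not by their neighbours, so the high count describes the window and not Rrh alone.

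Rgr (chromosome 14, 37034909 to 37049014) had 2 peaks in Bmal1 CKO 2 and 6 in Control 1, with none within 1 kb of its ends. Both peaks of Bmal1 CKO 2 were flanking and both were shared. The peak near Lrit1, a leucine-rich repeat gene of photoreceptor synapses that overlaps Rgr, had a fold of 2.93 in Bmal1 CKO 2, 90 bp from the listed start of Lrit1, and 3.56 in Control 1, 193 bp from it. That start, at 37054830, lies inside the annotated span of Lrit1 (37042475 to 37064938). The other lay 9261 bp from the lower end of Rgr in Bmal1 CKO 2, with a fold of 3.02, and 9395 bp from it in Control 1, with 3.14. The highest fold of the Rgr window in Control 1, 3.70, belonged to an unshared flank peak 8443 bp upstream of the start of Rgr, inside Lrit1. Another unshared one, 2096 bp beyond the lower end, had 3.18. Inside Rgr, Control 1 alone listed 2 peaks, 3257 and 2134 bp downstream of the start, with folds of 3.47 and 3.52. Both also lie within the span of Lrit1. Of 1083 genes with a length within 10% of that of Rgr, 29.5% had no summit inside in Bmal1 CKO 2 and 15.6% had none in Control 1.

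Opn4 (chromosome 14, 34590618 to 34600142) had no peak inside the gene in any list. Bmal1 CKO 2 listed 0 peaks within 10 kb of it, and Control 1 listed 2. In Control 1 a summit 7414 bp upstream of the start had a fold of 2.83, from 24 fragments over 7.82. Another, 7710 bp beyond the other end and inside Ldb3, a gene of muscle Z-discs, had a fold of 2.39, from 25 fragments over 9.90. These folds stood at percentiles 14.9 and 2.43 of the Control 1 list. An empty body was common at this length. Of 953 genes within 10% of the length of Opn4, 40.7% had no summit inside in Bmal1 CKO 2, 22.2% had none in Control 1 and 16.2% had none in both. A window without a peak was found in Bmal1 CKO 2 for 12.8% of 3053 genes of like window length.

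Opn5 (chromosome 17, 42556779 to 42611430) is the longest of the 5 genes and had few peaks, 3 in Bmal1 CKO 2 and 1 in Control 1. The 1 shared peak lay in the flank, 2458 bp beyond the upper end in Bmal1 CKO 2 and 2609 bp in Control 1. It had a fold of 2.49 from 16 fragments in Bmal1 CKO 2 and of 3.14 from 13 fragments in Control 1, and its intervals overlapped by only 54 bases. Inside the gene Bmal1 CKO 2 alone listed 2 peaks, with folds of 3.39 and 3.35, 7858 and 6928 bp from the upper end. Both stood above the median fold of the list, 2.96. Control 1 listed none inside, as did 2.43% of 865 genes of like length. Of 1168 genes of like window length, 3.25% had at most 1 peak in Control 1 and 30.4% had at most 3 in Bmal1 CKO 2.

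**Figure D2:**
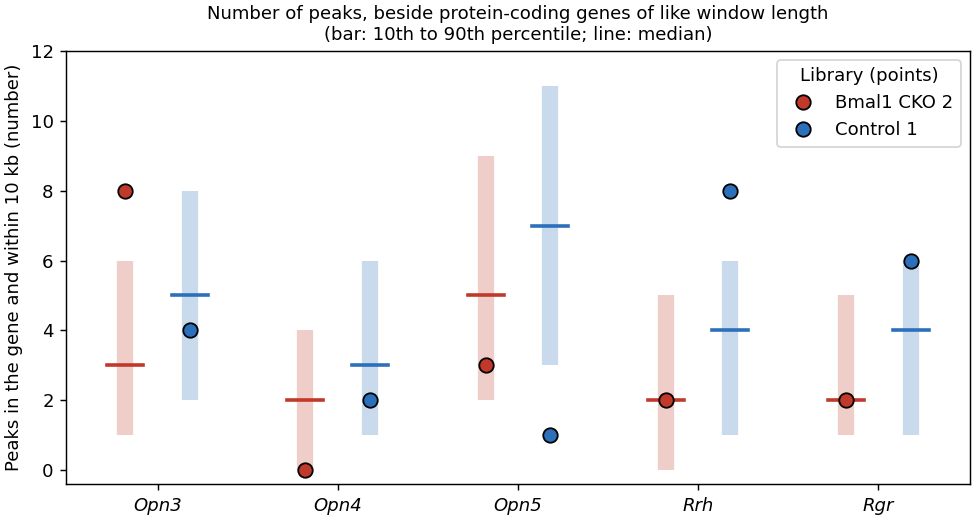
Number of peaks per gene window, with Bmal1 CKO 2 left of Control 1 for each gene. Bars give the 10th to 90th percentile, and lines the median, of protein-coding genes whose window length is within 10%. Opn3 in Bmal1 CKO 2 and Rrh in Control 1, with 8 peaks each, lie above their bars, and Opn5 in Control 1, with 1 peak, lies below.

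In order of peaks per 10 kb of window, Bmal1 CKO 2 ran Opn3 (1.58), Rrh (0.589), Rgr (0.586), Opn5 (0.402) and Opn4 (0), and Control 1 ran Rrh (2.36), Rgr (1.76), Opn3 (0.792), Opn4 (0.677) and Opn5 (0.134). Counts this small carry a wide counting error, and with 1 library each the order has no spread. Over all 3 libraries a genotype, Opn3 had 2.67 ± 4.62 peaks in Bmal1 CKO and 1.33 ± 2.31 in Control (SD, n = 3 each). Rrh had 0.667 ± 1.15 peaks in Bmal1 CKO and 2.67 ± 4.62 in Control (SD, n = 3 each). Opn4 had 0 peaks in every Bmal1 CKO library and 0.667 ± 1.15 in Control, Opn5 had 1 ± 1.73 and 0.333 ± 0.577, and Rgr had 0.667 ± 1.15 and 2 ± 3.46, in Bmal1 CKO and Control (SD, n = 3 each). In each of the 5 genes the SD of at least 1 genotype exceeded the difference of the means. This holds for any gene with peaks in at most 1 library per genotype. For each of the 5 genes an exact two-sided permutation test of the number of peaks gave p = 1, and p = 1 after Benjamini-Hochberg adjustment over 21900 genes. The peaks of each gene lay in at most 1 library per genotype. Every assignment then gives a difference at least as large as that observed, so this p was fixed in advance. The smallest p that 3 against 3 allows is 0.10, so 0 of 21900 genes (0%) passed at an adjusted or an unadjusted p under 0.05, and the test cannot show whether the genotypes differ. The direction also rests on single libraries. It turned at Opn3 and Opn5 without Bmal1 CKO 2 (−1.33 and −0.333 peaks), and at Rrh and Rgr without Control 1 (0.667 for both).

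Of the 15 opsin peaks of Bmal1 CKO 2, 9 (60.0%) overlapped a peak of Control 1, and of the 21 of Control 1, 8 (38.1%) overlapped a peak of Bmal1 CKO 2. Their 95% Wilson intervals, for counting error only, were 35.7% to 80.2% and 20.8% to 59.1%. Over the peaks in all protein-coding gene windows the shares were 56.7% in Bmal1 CKO 2 and 41.0% in Control 1, each inside its list's interval. The intervals take the peaks as independent. Those of Bmal1 CKO 2 that overlap the same Control 1 peak at the start of Opn3 are not, so this comparison is no test. By location, the shared peaks were 3 of 3 at gene ends, 2 of 6 deeper inside genes and 4 of 6 in flanks in Bmal1 CKO 2, and 2 of 3, 2 of 5 and 4 of 13 in Control 1. Over all protein-coding windows, with each peak placed by any gene, the shares at gene ends, inside and in flanks were 85.3%, 49.5% and 51.7% in Bmal1 CKO 2 and 64.4%, 35.4% and 39.0% in Control 1. The opsin peaks were placed by their opsin gene alone. Placed by any gene, flank peaks inside Kmo, Lrit1, Lrit3 and Ldb3 or at an end of Gar1 would change class. The opsin shares by location are therefore not directly comparable with these. Of the shared flank peaks, those at Gar1 and Lrit1 lay near a listed start of another gene.

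How closely shared peaks coincided varied. Summits lay 50 bp apart at the start of Opn3 and 78 bp apart at that of Rrh, and 64 and 117 bp apart inside Opn3. They lay 103 bp apart at Lrit1, 134 bp in the lower flank of Rgr, 151 bp at Opn5 and 234 bp at Gar1. The second Bmal1 CKO 2 peak at the start of Opn3, covered by the same wide Control 1 peak, had its summit 719 bp from it. With summits within 100 bp as the criterion, 3 peaks of each list were shared, 20% in Bmal1 CKO 2 and 14.3% in Control 1. The 3 were the starts of Opn3 and Rrh and the peak 6379 bp above the lower end of Opn3 in Bmal1 CKO 2.

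**Figure D3:**
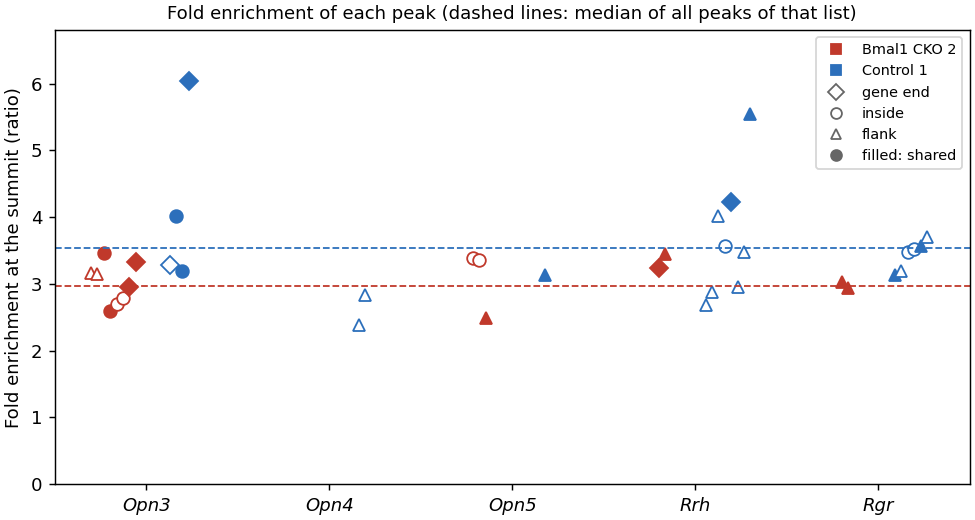
Fold enrichment at each summit by gene, Bmal1 CKO 2 left of Control 1. Diamonds are gene ends, circles deeper positions inside the gene, triangles flanks, and filled symbols overlap a peak of the other list. Dashed lines are the medians of all peaks, 2.96 in Bmal1 CKO 2 and 3.54 in Control 1. The 2 highest points, 6.04 and 5.54, are filled and belong to Control 1.

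Folds ran from 2.49 to 3.46 with a median of 3.15 in Bmal1 CKO 2, and from 2.39 to 6.04 with a median of 3.47 in Control 1. The medians over the peaks of all protein-coding windows were 2.93 in Bmal1 CKO 2 and 3.41 in Control 1. In Bmal1 CKO 2, the 9 shared opsin peaks had a median fold of 3.02 and the 6 unshared ones 3.16. All window peaks of that list had 3.00 and 2.85. The unlike order rests on few peaks of 1 library and was not tested. In Control 1 the shared ones had a median of 3.79 and the unshared ones 3.28, beside 3.81 and 3.20 for all window peaks. The peaks rested on 16 to 34 stacked fragments in Bmal1 CKO 2 and 13 to 43 in Control 1. A −log10 q-value under 5 was found for 11 of 15 in Bmal1 CKO 2 and 14 of 21 in Control 1, as for 75.9% and 57.5% of all peaks of those lists. With that limit as a threshold, 4 peaks of Bmal1 CKO 2 and 7 of Control 1 remained, of which 4 of 4 and 4 of 7 (57.1%) were shared. Over all window peaks past that limit in both lists the shares were 65.5% in Bmal1 CKO 2 and 29.1% in Control 1.

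**Figure D4:**
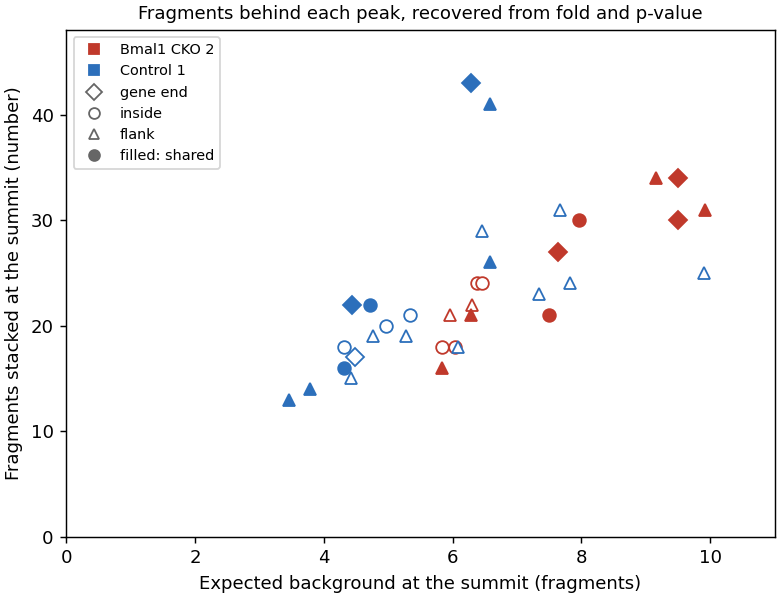
Fragments stacked at each summit against the background expected there, both recovered from the deposited fold and p-value. Red points are Bmal1 CKO 2, blue points Control 1, and symbols and filling are as for the plot of folds. The starts of Opn3 (43) and Gar1 (41) in Control 1 stand above the other points at a like background.

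Depth differed between the lists. Scaled to the background of Bmal1 CKO 3, Control 2 or Control 3, 0 of the 36 peaks reached the lowest −log10 p-value in that list, 5.05, 6.76 and 6.20. The start of Opn3, the highest of the scaled Control 1 peaks, would have had 4.04, 4.68 and 6.13 there. Scaled to Bmal1 CKO 1, 0 of the 15 from Bmal1 CKO 2 and 10 of the 21 from Control 1 reached its lowest value of 5.45, and none was listed. The highest scaled value from Bmal1 CKO 2, in the Rrh window, was 5.44 and fell only just short. Scaled to each other, 14 of the 15 peaks of Bmal1 CKO 2 reached the lowest value of Control 1. The reverse scaling, to the deeper library, can only raise a value that already exceeds its limit and tests nothing. The nearest peaks of the 4 short lists to any of the 5 genes lay 2710 to 9000 kb away.

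Nearest to the 10 kb edge, the outermost members were those of Rgr, 9261 and 9395 bp from the gene. The nearest summit left out lay 10249 bp from Opn3 in Bmal1 CKO 2, with a fold of 3.05, and the next 11104 bp from Rgr and 11180 bp from Opn4 in the same list, with folds of 2.80 and 2.59.

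Other genes of light sensing and retinoid handling were set beside the 5. Both cone opsin genes had a window peak in both lists. Opn1mw, the middle-wavelength opsin gene, had a gene-end peak in Bmal1 CKO 2 (fold 2.78) and none in Control 1, and Opn1sw, the short-wavelength opsin gene, had none in either. Of 6 genes that carry the melanopsin signal (Gnaq, Gna11, Gna14, Plcb4, Trpc6 and Trpc7), 3 had a gene-end peak in Bmal1 CKO 2 and 6 in Control 1. Trpc6, a channel gene opened downstream of melanopsin, had the highest end folds of that list, 3.51 in Bmal1 CKO 2 and 6.28 in Control 1. Plcb4, the phospholipase gene of that pathway, was the only gene of these lists with a window peak in short lists, 1 in each of the 4, beside 45 in Bmal1 CKO 2 and 48 in Control 1.

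Of 4 genes expressed in melanopsin ganglion cells, though not only there (Eomes, Tbx20, Adcyap1 and Pou4f2), 1 had an end peak in Bmal1 CKO 2 and 3 in Control 1. Eomes, the transcription factor gene that these cells need, had 2.31 in Bmal1 CKO 2 and 3.24 in Control 1. Of 5 retinoid genes that work beside Rgr and Rrh (Rpe65, Lrat, Rlbp1, Rdh5 and Rdh10), 2 had an end peak in Bmal1 CKO 2 and 4 in Control 1. Lrat, which makes retinyl esters, had 3.14 in Bmal1 CKO 2 and 3.96 in Control 1. Rlbp1, which carries 11-cis retinal in pigment epithelium and Müller glia, had 3.49 in Bmal1 CKO 2 and 3.82 in Control 1. The defining markers of pigment epithelium (Rpe65, Best1, Lrat, Ttr and Rdh5) had an end peak at 1 of 5 genes in Bmal1 CKO 2 and 2 of 5 in Control 1. Those of Müller glia (Rlbp1, Glul and Slc1a3) had one at 2 of 3 and 3 of 3. Rpe65, Lrat, Rdh5 and Rlbp1 are also among the retinoid genes above, so these lists are not independent. Against backgrounds of 58.9% and 69.5%, lists of 2 to 6 genes do not separate from other genes.

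The genes closest in pattern, by the number of peaks in the 6 lists among genes of like window length, had the same numbers in every list. For Opn3 this was Rbm39 alone, of 1922 compared. For Rrh 11 genes tied, with Mphosph10 and Gpr183 closest in the median fold of Control 1, and for Opn5 6 tied, with Caps2 and Trmt2b closest. For Rgr 60 tied, with Abhd4 and Akr1b8 closest, and for Opn4 86, with Gcgr and Slc30a2. The match is over 6 lists of which 4 are at 0.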

How the data were processed

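ChIP-seq with a BMAL1 antibody gave 1 peak list per library. Trim Galore, Bowtie2, MACS2 and build mm10 are named in the submitters' processing notes. The sources used here give no versions, no parameters and no statement on an input. The deposited values of a peak are its fold enrichment (a ratio), its −log10 p-value and −log10 q-value, its summit offset, and a score that is the −log10 q-value times 10 without decimals. Peaks were called per library.

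Summits were placed on the RefSeq gene table of GRCm38.p6, and starts were taken from its promoter table, which held 4 of the 5 genes. Gene ends were windows of 1 kb, and peaks were shared when they overlapped by at least 1 bp. Fragments and background were solved from fold (pseudocount 1) and Poisson p-value. They matched within 0.02 for all peaks of every list, and the solution was tested on simulated data. Replicates are separate samples by the labels, which do not say whether animals were pooled, so the spread may be technical.

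Numbers of peaks were compared by an exact permutation test over 20 assignments (Python 3.11.15, scipy 1.17.1). All 5 genes, their gene-end peaks, strongest and shared peaks are named by rule. The members and gene lists were chosen with earlier results of these data known, and a few list members are not reported here. Promoters of Opn4 and Rgr, which carry no peak, the motifs and the CpG limit of 0.6 were added later. Alternatives were the flank, the end window, the q-value limit, equal list lengths, the criterion for sharing, a replicate block and each library left out.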

Additional observations from a re-analysis of the deposited data

How the results depend on the processing

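The 2 opsin genes with a gene-end peak in Bmal1 CKO 2 and the 2 in Control 1 remained 2 under every alternative run (end windows of 500 bp or 2 kb, a −log10 q-value of at least 5, equal list lengths and, chosen after seeing the data, transcription starts). Numbers of peaks moved with the window and the threshold. With genes alone 9 peaks were left in Bmal1 CKO 2 and 8 in Control 1, with the q-value limit 4 and 7, and with a flank of 5 kb 10 and 13. The shared percentage was 20 in Bmal1 CKO 2 and 14.3 in Control 1 when summits had to lie within 100 bp, and 100 in Bmal1 CKO 2 (4 of 4 peaks) under the q-value limit. The difference in peaks, Bmal1 CKO minus Control, ranged with 1 library left out from −1.33 to 2.67 at Opn3, −1.0 to 0.0 at Opn4, −0.333 to 1.17 at Opn5, −3.33 to 0.667 at Rrh and −2.33 to 0.667 at Rgr. Without the 2 longest lists it was 0 for all 5 genes, since the other lists hold no opsin peak. With the replicate number as a block the differences were 1.33, −0.667, 0.667, −2.0 and −1.33 for Opn3, Opn4, Opn5, Rrh and Rgr. The exact sign-flip p was 1 each (smallest possible by design 0.25). Peaks lay only in Control 1 and Bmal1 CKO 2, which bear different numbers. No flip then gives a smaller difference, so this p was also fixed in advance. Same-numbered samples deviated together by correlations of −0.765, −0.786 and 0.773 over genes. Numbers 1 and 2 each join a long list with a short list, and number 3 joins 2 short lists. The signs go with list length, so the correlations cannot show whether the numbers pair the samples. Opsin peaks rested on 16 to 34 fragments in Bmal1 CKO 2 and 13 to 43 in Control 1, which limits the precision of their folds.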
